A study of Homo sapiens with 17 samples.

Results

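The genes described here are the classical and related heavy chains HLA-B, HLA-C, HLA-E and HLA-F, their light chain B2M, the peptide transporter subunits TAP1 and TAP2, the loading chaperone TAPBP (tapasin), and the transactivator NLRC5. They were chosen by name from the antigen presentation pathway, with earlier results of these data known. They are 9 of the 58278 gene identifiers counted in every library. All 9 passed the filter on low counts in the main fits, but HLA-F fell below the alternative filter of a mean of at least 2 CPM. The cells were MOLM13, an established human line from acute myeloid leukaemia whose driver is the fusion MLL-AF9. In a first experiment, libraries with a non-targeting control (NT, n = 3) stood beside libraries with a CRISPR knockout of HOXA9 (HOXA9_KO, n = 3) or of SAFB (SAFB_KO, n = 3). In a second, non-targeting libraries (NT_MEIS1ex, n = 4) stood beside knockouts of MEIS1 (MEIS1_KO, n = 4). HOXA9 and MEIS1 are homeodomain transcription factors that sustain this leukaemia, and SAFB is a protein of the nuclear matrix. All groups share the MOLM13 background and its fusion. Nothing in the labels tells whether replicate libraries were grown separately or derive from 1 clone, so a p-value here refers to the spread between deposited libraries, which may be technical.

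Class I molecules present peptides of the cell's own proteins to CD8+ T cells. Proteasomes, including the interferon-inducible immunoproteasome, cut the peptides, the TAP1 and TAP2 heterodimer carries them into the endoplasmic reticulum, and tapasin holds the empty heavy chain and B2M at the transporter until a peptide binds. NLRC5 acts in the nucleus on the SXY module of class I promoters, which is bound by RFX, CREB/ATF and NF-Y factors, and interferons raise most of these genes through IRF factors and their partners, which bind ISRE elements. Low class I expression is one of the ways in which leukaemia cells avoid T cells.

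Of the 9 genes, 7 matched promoter windows in RefSeq (GRCh38.p14), each covering 250 bases before to 50 after an annotated start site, and HLA-E and NLRC5 had none. The stretches below are shown because they carry matches to the ISRE-like motif of interferon factors. Those of B2M and HLA-C also hold matches to motifs of NF-kB and of the NF-Y and CREB/ATF partners of NLRC5. RFX sites were not searched. Capitals mark matches, on either strand, to the ISRE core (GAAA, any 2 bases, GAAA) or its relaxed form (GAA, any 2 bases, GAAA), to the NF-kB consensus, to CCAAT (the NF-Y box) and to TGACG (the X2 or CRE core). Each is read 5′ to 3′ along the gene's own strand. Stretches that touch an annotated exon are shortened to the ISRE match. They come from B2M (chr15:44711367-44711478, plus strand), HLA-C (chr6:31272138-31272290, minus), HLA-B (chr6:31357316-31357344, minus), HLA-F (chr6:29723268-29723297, plus), TAPBP (chr6:33314079-33314105, minus), TAP1 (chr6:32853816-32853845, minus) and TAP2 (chr6:32838781-32838809, minus).
B2M: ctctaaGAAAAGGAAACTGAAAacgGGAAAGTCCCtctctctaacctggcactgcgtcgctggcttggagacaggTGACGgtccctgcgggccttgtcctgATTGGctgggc
HLA-C: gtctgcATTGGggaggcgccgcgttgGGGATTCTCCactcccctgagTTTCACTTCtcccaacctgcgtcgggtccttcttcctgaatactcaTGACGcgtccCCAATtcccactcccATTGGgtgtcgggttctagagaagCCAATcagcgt
HLA-B: ctcccctgagTTTCACTTCttctcccaac
HLA-F: ctccccagagTTTCTCTTTCtctcccaacc
TAPBP: tttggagGAAAGTGAAAGTGAAAggag
TAP1: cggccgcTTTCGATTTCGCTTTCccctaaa
TAP2: ggctgggGAAGCGAAAGCGAAAgctgccc

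The strict ISRE core was found in the windows of 5 of the 7 genes (HLA-F, B2M, TAPBP, TAP1 and TAP2), against 3.57% of 35116 RefSeq windows. The relaxed core, added after the promoters had been read, was found in HLA-B, HLA-C and TAP2, against 7.66% of all windows, and in TAP2 it overlaps the strict one. The NF-kB consensus was found in HLA-B, HLA-C, B2M, TAPBP and TAP1, against 5.91%, CCAAT in 5 of 7, against 34.6%, and TGACG in 4 of 7, against 24.6%. The STAT motif TTCNNNGAA was found in 1 of 7 genes, in a further TAP1 window, and TATAAA in 1, TAP2, against 7.66% and 11.5%. HLA-B, HLA-C and B2M each held an NF-Y box, an X2 core, an NF-kB and an ISRE-like match in that promoter window. With TMM scaling, the strict core was present both in genes that rose after HOXA9 knockout (B2M, TAPBP) and in genes that fell (HLA-F, TAP1, TAP2). Both of those rises depended on the scaling. With counts of nuclear protein-coding genes as library sizes, B2M stood at -0.07 (edgeR adjusted p = 0.0865) and TAPBP at 0.02 (0.711). A match describes letters in this window and shows no binding.

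**Figure D1:**
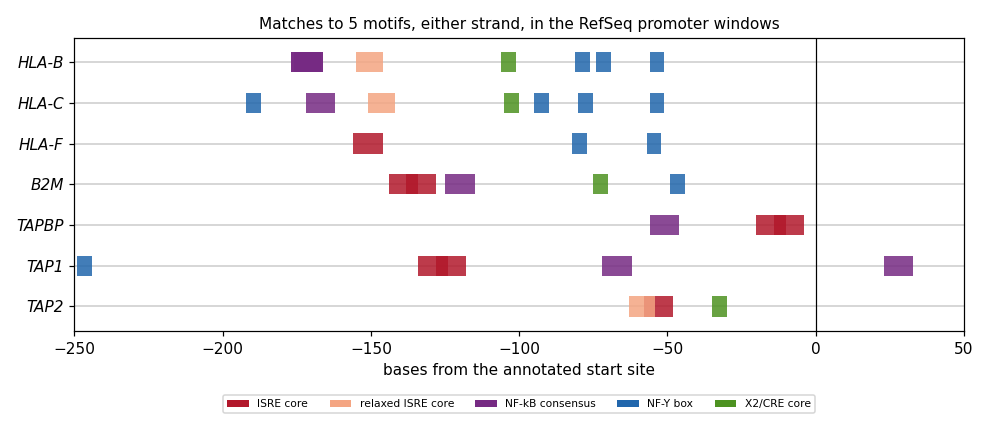
Matches to 5 motifs on either strand in the promoter windows of 7 genes, plotted by distance in bases from the annotated start site (0). In HLA-B, HLA-C and B2M the ISRE-like and NF-kB matches lie upstream of the X2 core match and, but for 1 NF-Y box in HLA-C, of the NF-Y boxes. The ISRE matches of TAPBP and TAP2 lie closest to the start site.

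The 7 genes other than B2M and NLRC5 lie on chromosome 6 (GRCh38, GENCODE 29). HLA-F spans 29722775-29738528 on the plus strand and HLA-E 30489467-30494205 on the plus strand. HLA-C spans 31268749-31272130 and HLA-B 31269491-31357188, both on the minus strand, and the long HLA-B annotation makes each share exon sequence with the other (1.40% of HLA-C, 1.15% of HLA-B). TAP2 lies at 32821833-32838780, TAP1 at 32845209-32853978 and TAPBP at 33299694-33314387, all on the minus strand. B2M lies on chromosome 15 at 44711487-44718877 and NLRC5 on chromosome 16 at 56989485-57083531, both on the plus strand. The counts cover whole genes, that is, exons with their UTRs. TAP2 shares 32.3% of its exon sequence with AL669918.1 on the same strand. On the opposite strand, 28.5% of HLA-F, 17.8% of HLA-B and 9.49% of TAP1 are covered by other genes, and how the counting treated strand is not known here. Class I heavy chain genes also resemble one another, and HLA-B and HLA-C are highly polymorphic. The split of reads between the heavy chains therefore depends on an alignment that is uncertain here.

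Reads assigned to genes ranged from 30737884 to 67842104 per library in the HOXA9 and SAFB experiment and from 23264176 to 33232459 in the MEIS1 experiment. Mitochondrial rRNA took 22.5% to 28.4% of assigned reads in NT, 32.0% to 35.5% in HOXA9_KO, 24.9% to 27.1% in SAFB_KO and at most 0.00941% in the MEIS1 experiment. No 2 libraries held identical counts. The RNA of each targeted gene was lower in its knockout, by 0.93 ± 0.05 for HOXA9, 0.89 ± 0.07 for SAFB and 1.54 ± 0.07 for MEIS1 on the log2 scale (± SE). MEIS1 RNA also fell by 1.54 ± 0.06 in HOXA9_KO and by 0.31 ± 0.05 in SAFB_KO. Interferon-stimulated genes stood high in NT: the mean log2 CPM (counts scaled to a common library total) of 24 type I response genes was 6.42 ± 0.26 (SD, n = 3) there, 3.53 ± 0.08 in HOXA9_KO, 4.22 ± 0.10 in SAFB_KO, 3.94 ± 0.21 in NT_MEIS1ex and 4.35 ± 0.25 in MEIS1_KO. NT replicate 3 was the lowest NT library at 6.13. The myeloid identity of the cells was visible in LYZ, at 4395 to 4484 CPM in NT, while CD3E, CD3G, CD2, HBA1 and PF4 had 0 counts in all NT libraries.

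In HOXA9_KO the pathway split against NT. HLA-B, HLA-C, HLA-E, B2M, TAPBP and NLRC5 rose, while TAP1, TAP2 and HLA-F fell. Expressed as folds, HLA-B was 1.72-fold, HLA-C 1.56-fold and NLRC5 1.36-fold the NT level, and TAP2 was 2.19-fold and TAP1 1.58-fold lower. All 9 genes passed an adjusted p of 0.05 (edgeR quasi-likelihood test, Benjamini-Hochberg over 18876 genes), 6 higher and 3 lower, and the HOXA9_KO and NT libraries did not overlap for any of them. Across all genes tested, 57.5% passed in this comparison (27.6% higher, 29.9% lower) and 62.6% did not overlap, so a passing gene was common in this comparison. The median log2 fold change was 0.27 over the 9 genes and -0.07 over all genes.

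**Figure D2:**
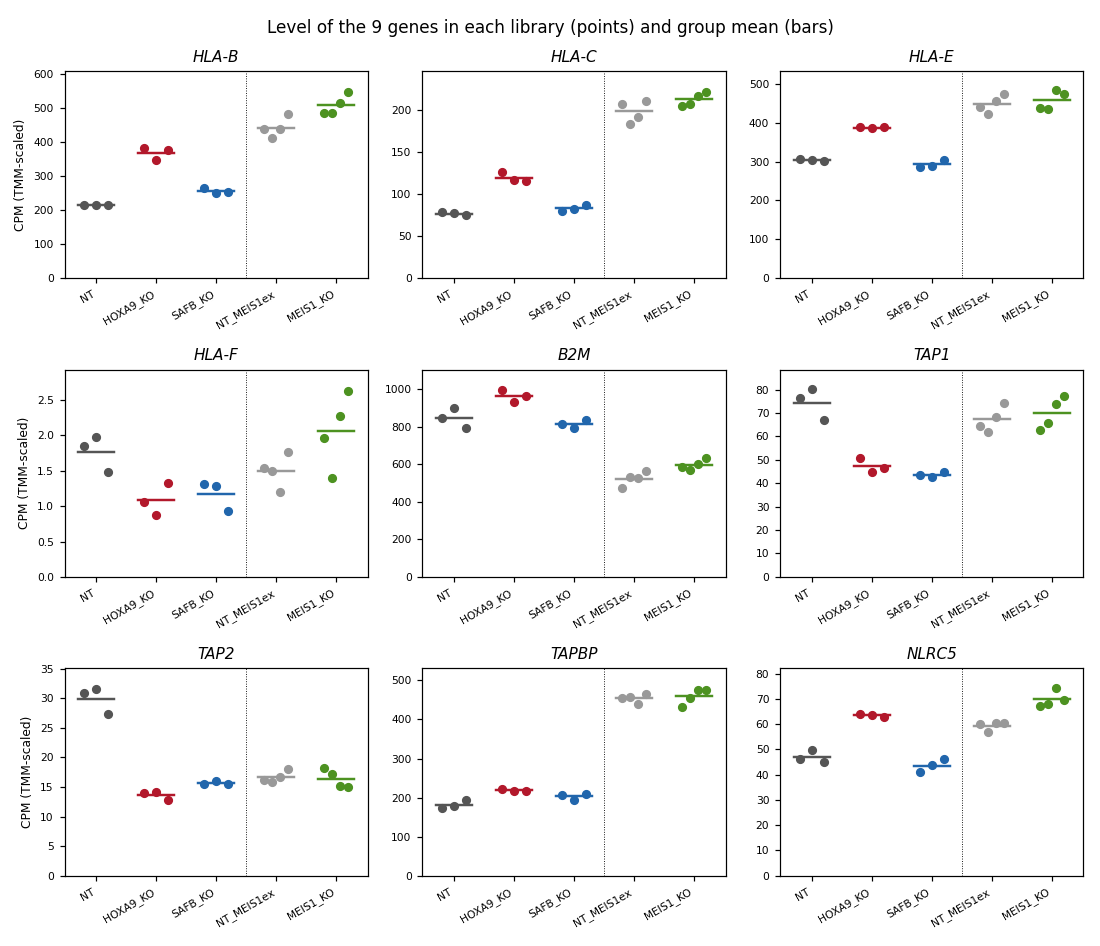
CPM of the 9 genes (TMM-scaled within each experiment; y axes start at 0) in every library (points) with group means (bars), with the 2 experiments separated by a dotted line. HOXA9_KO libraries lie above NT for HLA-B, HLA-C, HLA-E, B2M, TAPBP and NLRC5 and below for HLA-F, TAP1 and TAP2. With nuclear protein-coding counts as library sizes the B2M change in HOXA9_KO and the HLA-C change in SAFB_KO turn to the other sign.

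Among the heavy chains, HLA-B measured 215, 214 and 214 CPM in NT and 381, 346 and 378 in HOXA9_KO. The lowest knockout library thus lay well above the NT libraries, and the log2 fold change was 0.78 ± 0.03 (SE, adjusted p = 1.17e-25). HLA-C, which is also the main ligand of inhibitory KIR receptors on natural killer cells, measured 78.2, 76.9 and 75.4 CPM in NT and 126, 117 and 116 in HOXA9_KO. Every knockout library was above every NT library, by 0.64 ± 0.04 (adjusted p = 2.47e-19). With counts of nuclear protein-coding genes as library sizes, in place of TMM factors, it was 0.39 (adjusted p = 1.13e-11).

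HLA-E, which presents leader peptides of other class I chains to the NKG2A receptor, measured 306, 305 and 302 CPM in NT and 389, 386 and 390 in HOXA9_KO. The groups did not overlap, and the change was 0.35 ± 0.03 (adjusted p = 3.00e-14), or 0.10 (adjusted p = 0.00240) with nuclear protein-coding library sizes. HLA-F, a heavy chain found mostly inside cells, was scarce, at 1.85, 1.97 and 1.48 CPM in NT and 1.06, 0.871 and 1.32 in HOXA9_KO, from 28 to 137 counts per library. It went the other way, by -0.70 ± 0.23 (adjusted p = 0.00901), and this call rested on 1 library: without HOXA9_KO replicate 2 the adjusted p was 0.0647.

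B2M, the light chain that all class I heavy chains need to fold, measured 844, 902 and 795 CPM in NT and 996, 931 and 963 in HOXA9_KO. The lowest knockout library exceeded the highest NT library only slightly, and the change of 0.19 ± 0.04 (adjusted p = 2.75e-05) was the smallest of the 9. Its direction depended on the scaling. With nuclear protein-coding library sizes, the median over all genes moved from -0.07 to -0.32, B2M to -0.07 (adjusted p = 0.0865) and TAPBP to 0.02 (adjusted p = 0.711), both still above that median. The same scaling changed all calls from 5207 higher and 5640 lower to 2870 and 9267.

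The transporter subunits moved against HLA-B, HLA-C and HLA-E. TAP1 measured 76.2, 80.1 and 67.0 CPM in NT and 50.6, 44.8 and 46.4 in HOXA9_KO. TAP2 measured 31.0, 31.5 and 27.4 CPM in NT and 14.0, 14.2 and 12.9 in HOXA9_KO. No knockout library of either gene reached the NT range, and the log2 fold changes were -0.66 ± 0.05 (adjusted p = 9.18e-14) and -1.13 ± 0.07 (adjusted p = 6.22e-20). NT replicate 3, the NT library with the lowest interferon genes, was also the lowest NT library for 7 of the 9 genes, all but HLA-B and TAPBP, and all 9 genes still passed without it. TAPBP, by contrast, measured 172, 179 and 193 CPM in NT and 222, 217 and 216 in HOXA9_KO, without overlap, a rise of 0.27 ± 0.04 (adjusted p = 1.33e-08).

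NLRC5, the class I transactivator, measured 46.1, 49.7 and 44.9 CPM in NT and 64.2, 63.8 and 63.0 in HOXA9_KO. The 3 knockout libraries lay within 2 CPM of one another and above all NT libraries, a rise of 0.44 ± 0.05 (adjusted p = 2.86e-11), or of 0.19 (adjusted p = 0.000606) with nuclear protein-coding library sizes. Its class II counterpart CIITA, from the list of SXY factors, fell by 1.27 ± 0.07 (adjusted p = 9.84e-21). With CIITA, 3 of the 9 SXY factors tested were called, and these fell, where 57.5% of all genes were called and 29.9% fell. The other falls were RFXAP, an RFX subunit (-0.98 ± 0.15), and NFYB, an NF-Y subunit (-0.48 ± 0.07), and the list median was -0.05.

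The supply of peptides changed unevenly in HOXA9_KO: 5 of 14 genes rose, 6 fell and 3 did not pass. Of all genes, 27.6% rose and 29.9% fell. The list median was -0.07, the same as over all genes. PSMB9, an immunoproteasome subunit whose gene sits beside TAP1 and shares its promoter region, measured 16.7, 18.0 and 15.6 CPM in NT and 6.60, 5.85 and 6.49 in HOXA9_KO. It fell by 1.41 ± 0.09 (adjusted p = 1.62e-18), more than PSMB8 (-0.48 ± 0.05), the immunoproteasome subunit encoded between TAP2 and TAP1. The third inducible subunit, PSMB10, encoded on chromosome 16, rose by 0.31 ± 0.05. PSMB5, PSMB6 and PSMB7, the constitutive counterparts of the catalytic subunits, rose by 0.30 ± 0.05, 0.14 ± 0.06 and 0.26 ± 0.05. The nuclear proteasome activator PSME3 rose by 0.37 ± 0.04. The cytosolic peptidases LAP3 and TPP2 fell by 0.59 ± 0.04 and 0.35 ± 0.03, the proteasome assembly factor POMP by 0.14 ± 0.04 and the PA28 subunit PSME2 by 0.13 ± 0.04.

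The trimming and loading genes of the endoplasmic reticulum mostly rose in HOXA9_KO. They had a median of 0.29, with 8 of 10 higher and 2 lower, against 27.6% and 29.9% of all genes. The falls were the peptide-trimming aminopeptidases ERAP2 (-0.70 ± 0.06) and ERAP1 (-0.22 ± 0.04). The rises were the chaperones PDIA3 (0.51 ± 0.03), CANX (0.35 ± 0.03), CALR (0.34 ± 0.03) and HSPA5 (0.27 ± 0.08), the translocon subunit SEC61A1 (0.37 ± 0.03) and the tapasin homologue TAPBPL (0.31 ± 0.07). The glycoprotein folding sensor UGGT1 (0.23 ± 0.03) and the endosomal aminopeptidase LNPEP (0.24 ± 0.03) also rose. These chaperones serve many secreted proteins besides class I. Values of this and the other lists around the 9 genes were taken with TMM factors only. With nuclear protein-coding library sizes the median over all genes moved from -0.07 to -0.32. How far the rises and falls of these lists depend on the scaling was not tested.

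The interferon genes beside these changes fell together: all 24 type I response genes were lower in HOXA9_KO, with a median of -3.05, and 10 of 11 tested interferon gamma response genes were lower and 1 higher, with a median of -1.27. MX1, an antiviral GTPase, measured 195, 190 and 143 CPM in NT and 13.8, 13.1 and 12.9 in HOXA9_KO. Of 12 interferon and NF-kB factors, 5 rose and 5 fell, against 27.6% and 29.9% of all genes in this comparison. The falls included IRF7 (-2.07 ± 0.06) and IRF9 (-1.31 ± 0.10), which carry interferon signals, and the rises included IRF8 (0.49 ± 0.03) and STAT3 (0.30 ± 0.04). Of 9 receptors and kinases, 7 rose, led by the receptor chains IFNGR1 (0.87 ± 0.04) and IFNAR1 (0.70 ± 0.05), and 1, the feedback inhibitor SOCS1, fell by 1.21 ± 0.22. The part of interferon signalling in the class I changes was not tested.

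**Figure D3:**
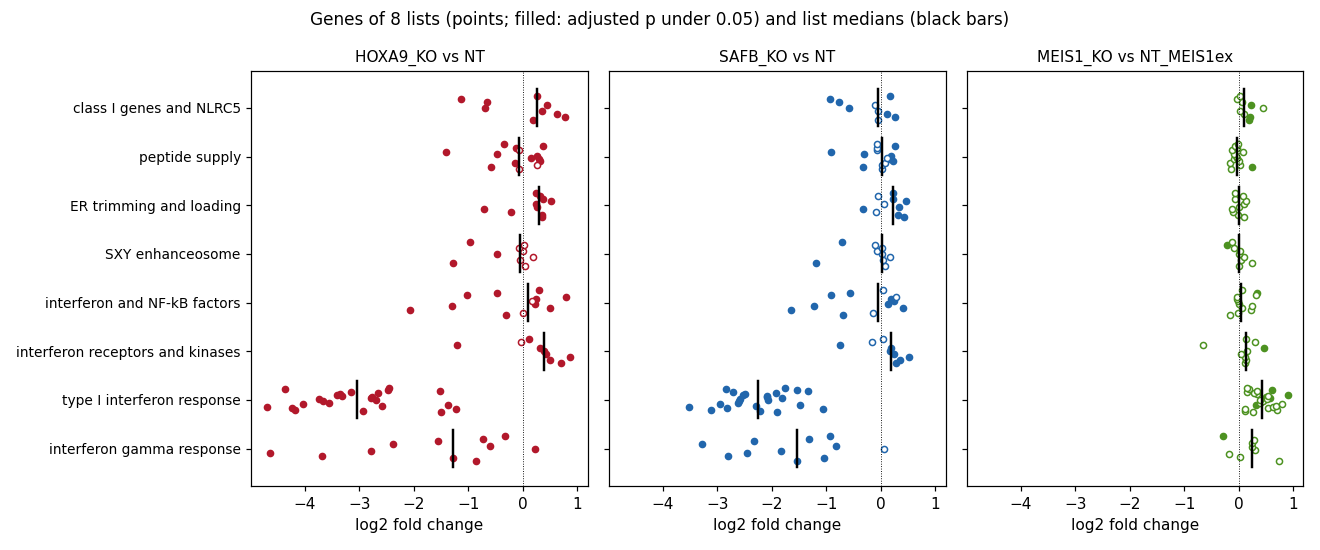
Log2 fold change of each tested gene of 8 lists (points, filled where the edgeR adjusted p was under 0.05) with list medians (black bars), in the 3 knockout comparisons. The type I interferon genes lie at a median of -3.05 in HOXA9_KO, -2.25 in SAFB_KO and 0.42 in MEIS1_KO, while the class I genes and NLRC5 scatter on both sides of 0 in HOXA9_KO and SAFB_KO.

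Myeloid markers moved alongside too: 8 of 9 rose and 1, FLT3, fell in HOXA9_KO, against 27.6% and 29.9% of all genes. Their median was 0.92, and the rises included MPO (2.48 ± 0.06) and ITGAM (1.96 ± 0.04). In bulk RNA a change in the share of cells of a state and a change in RNA per cell cannot be told apart, and the part of differentiation was not tested. Among genes that resemble class I, CD1D, which presents lipids to NKT cells, rose from 3.57, 4.30 and 4.21 CPM in NT to 32.0, 28.9 and 27.5 in HOXA9_KO (2.88 ± 0.09). The neonatal Fc receptor FCGRT, which pairs with B2M, rose by 1.79 ± 0.04 and MR1, which also does, by 0.88 ± 0.04. The iron regulator HFE fell by 0.99 ± 0.22 and the NKG2D ligand ULBP1 by 1.95 ± 0.18, and 4 of 9 tested genes of this list did not pass. Polycomb genes and regulators of class I turnover gave 5 rises and 3 falls of 9, against 27.6% and 29.9% of all genes. Among them were EZH2, a silencer of class I genes in other tumours (-0.92 ± 0.05), and SUSD6 and TMEM127, which promote class I degradation with WWP2 (0.86 ± 0.06, 0.68 ± 0.04 and 0.18 ± 0.05).

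In SAFB_KO the transporter genes stood lower than in NT, with little rise elsewhere. TAP1 and TAP2 fell, HLA-B and TAPBP rose by a smaller amount, and HLA-E, B2M and NLRC5 did not pass the test. In all, 3 genes were called higher and 3 lower of 9, against 35.5% of all genes called (20.2% higher, 15.3% lower). The same 6 genes did not overlap with NT, against 46.3% of all genes, and the median was -0.05 against -0.02. This comparison uses the same NT libraries as the previous one, so the values stand side by side and their likeness is not a separate observation. TAP2 in NT stood above every other group, as given below. The part of the NT libraries in the TAP1 and TAP2 falls of both knockouts was not tested.

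TAP1 measured 43.6, 42.8 and 44.7 CPM in SAFB_KO, a narrow range below all NT libraries, and fell by 0.77 ± 0.05 (adjusted p = 4.03e-15). TAP2 measured 15.6, 16.0 and 15.5 CPM, also below all NT libraries, and fell by 0.94 ± 0.07 (adjusted p = 1.48e-16). HLA-B measured 266, 249 and 254 CPM, all above NT, a rise of 0.26 ± 0.03 (adjusted p = 2.10e-08), or of 0.12 (adjusted p = 0.00317) with nuclear protein-coding library sizes. TAPBP, at 207, 194 and 209 CPM, lay just above the highest NT library and rose by 0.16 ± 0.04 (adjusted p = 0.000253), which that scaling reduced to 0.03 (adjusted p = 0.592).

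HLA-C measured 79.4, 82.5 and 87.4 CPM in SAFB_KO and HLA-F 1.31, 1.29 and 0.934 CPM. Both cleared NT narrowly, with 0.11 ± 0.04 (adjusted p = 0.0240) for HLA-C and -0.59 ± 0.23 (adjusted p = 0.0363) for HLA-F. Neither call was stable. HLA-C lost it without NT replicate 2 (adjusted p = 0.0579), NT replicate 3 (0.0630) or SAFB_KO replicate 3 (0.225) and with genes of at least 2 CPM on average (0.241), and turned to -0.03 with nuclear protein-coding library sizes. HLA-F lost it without NT replicate 1 (adjusted p = 0.106), NT replicate 2 (0.134) or SAFB_KO replicate 3 (0.169), without a filter (0.0555) and with DESeq2 (0.0663).

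HLA-E measured 285, 290 and 303 CPM in SAFB_KO, B2M 817, 793 and 838 CPM, and NLRC5 41.0, 43.7 and 46.1 CPM. Each overlapped the NT libraries, with log2 fold changes of -0.05 ± 0.03 (adjusted p = 0.169), -0.05 ± 0.04 (0.244) and -0.10 ± 0.05 (0.0910). All 3 were called lower with nuclear protein-coding library sizes, under which the median over all genes moved from -0.02 to -0.16 and the calls from 3812 higher and 2886 lower to 1715 and 5533, and HLA-E stood at -0.19, B2M at -0.19 and NLRC5 at -0.24. That scaling left 1 of the 9 genes called higher, HLA-B, and 6 called lower. All 3 were also called lower with genes of at least 2 CPM on average, at -0.11, -0.11 and -0.16. Without NT replicate 3, B2M (adjusted p = 0.0290) and NLRC5 (0.0499) passed, and NLRC5 also did without SAFB_KO replicate 3 (0.0357).

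**Figure D4:**
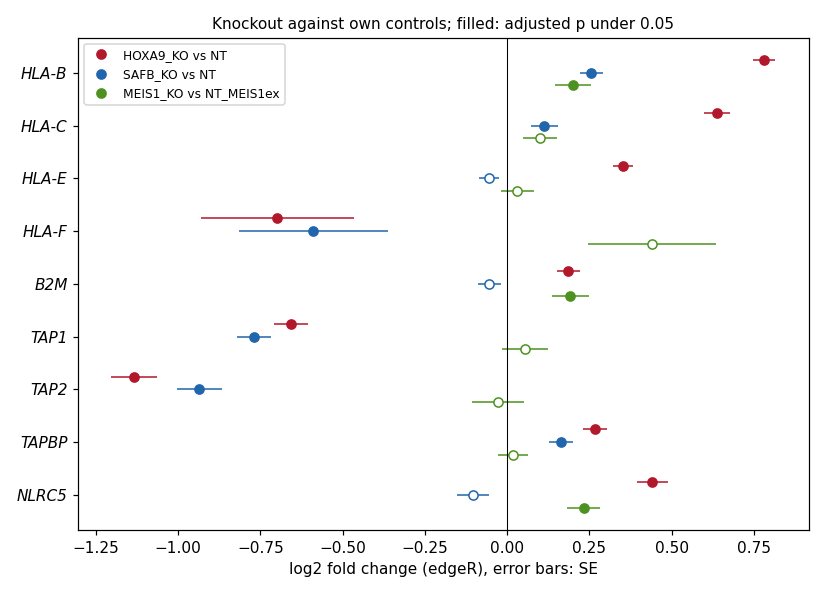
Log2 fold change (edgeR) ± SE of the 9 genes in each knockout against the controls of its own experiment, filled where the adjusted p was under 0.05. TAP1, TAP2 and HLA-F lie left of 0 in HOXA9_KO and SAFB_KO, and HLA-B lies right of 0 in all 3 comparisons. With nuclear protein-coding library sizes B2M in HOXA9_KO and HLA-C in SAFB_KO change sign.

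Around them, PSMB9 fell by 0.91 ± 0.09 in SAFB_KO, PSMB8 by 0.31 ± 0.04, LAP3 by 0.32 ± 0.04 and ERAP2 by 0.33 ± 0.06. CALR, PDIA3 and CANX rose by 0.42 ± 0.03, 0.45 ± 0.03 and 0.33 ± 0.03, as did HSPA5, SEC61A1 and UGGT1 (0.34 ± 0.08, 0.23 ± 0.03 and 0.23 ± 0.03), and PSMB10, PSMB5, PSMB7 and PSME3 rose by 0.17 to 0.26. Of the supply list 4 of 14 rose and 3 fell, and of the loading list 6 of 10 rose and 1 fell, with medians of 0.03 and 0.23. Of all genes, 20.2% rose and 15.3% fell in this comparison. These list values, too, were taken with TMM factors only. Nuclear protein-coding library sizes moved the median over all genes from -0.02 to -0.16. CIITA (-1.19 ± 0.07) and RFXAP (-0.72 ± 0.15) were the 2 calls among 9 SXY factors, where 35.5% of all genes were called. All 24 type I interferon genes fell, with a median of -2.25, and 10 of 11 interferon gamma response genes, with a median of -1.53. IRF7 fell by 1.64 ± 0.06, IRF9 by 1.23 ± 0.10 and IRF1 by 0.69 ± 0.09. Of the myeloid markers, 6 of 9 rose and 2 fell, with a median of 0.35. FCGRT rose by 0.87 ± 0.04 and MR1 by 0.39 ± 0.04, while CD1D stood at -0.10 ± 0.11 (adjusted p = 0.547).

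The 2 knockouts were also compared directly. HLA-B, HLA-C, HLA-E, B2M, TAPBP and NLRC5 were higher in HOXA9_KO than in SAFB_KO, and TAP2 was lower. These 7 calls of 9 stood against 40.6% of all genes called (20.1% higher, 20.5% lower). Libraries did not overlap for 8 of 9, HLA-F being the exception, against 48.3% of all genes, and the median was 0.24 against -0.02. The differences were 0.55 ± 0.05 for NLRC5 (adjusted p = 2.04e-13), 0.53 ± 0.03 for HLA-B (2.07e-18), 0.52 ± 0.04 for HLA-C (1.29e-15), 0.41 ± 0.03 for HLA-E (6.53e-16) and 0.24 ± 0.04 for B2M (8.19e-07). With nuclear protein-coding library sizes these 5 remained positive and passed, B2M at 0.13 (adjusted p = 0.00264), while the median over all genes moved from -0.02 to -0.13 and the calls from 3791 higher and 3877 lower to 2452 and 5840.

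TAP1 differed by 0.11 ± 0.06 between the knockouts and did not pass (adjusted p = 0.103). It passed with RLE factors (0.0457), with the 2 groups fitted alone (0.0423) and without HOXA9_KO replicate 2 (0.0483), and was -9.7e-05 with nuclear protein-coding library sizes. TAP2 differed by -0.20 ± 0.07 (adjusted p = 0.0278), a call lost with RLE factors, DESeq2 and limma-voom (0.0522, 0.0751 and 0.0515) and without HOXA9_KO replicate 3 (0.157), SAFB_KO replicate 2 (0.0879) or SAFB_KO replicate 3 (0.0637), and it was -0.31 with nuclear protein-coding library sizes. TAPBP differed by 0.10 ± 0.04 (adjusted p = 0.0203), lost without HOXA9_KO replicate 1 (0.0911) or SAFB_KO replicate 2 (0.205) and at -0.0099 with nuclear protein-coding library sizes. HLA-F differed by -0.11 ± 0.25 (adjusted p = 0.771), turning to 0.03 without HOXA9_KO replicate 2. Type I interferon genes were lower in HOXA9_KO than in SAFB_KO in 17 of 24 cases, against 20.5% of all genes, with none higher. Their median was -0.87, the opposite side from NLRC5, HLA-B, HLA-C, HLA-E and B2M.

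Knockout of MEIS1 left the pathway nearly level. HLA-B, B2M and NLRC5 rose slightly, by 0.20 ± 0.06, 0.19 ± 0.06 and 0.23 ± 0.05 on the log2 scale, and the other 6 genes did not pass. These 3 calls of 9, all higher, stood against 8.81% of 15744 genes called (4.97% higher, 3.84% lower), and the median was 0.10 against 0.00.

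NLRC5 measured 67.1, 68.1, 74.4 and 69.8 CPM in MEIS1_KO and 59.9, 56.8, 60.6 and 60.4 in NT_MEIS1ex. No library overlapped, where 15.7% of all genes did not overlap, and the adjusted p was 0.00804. HLA-B measured 486, 485, 515 and 548 CPM in MEIS1_KO and 438, 411, 437 and 484 in NT_MEIS1ex, so that the highest control came within 1 CPM of the lowest knockout (adjusted p = 0.0322). B2M measured 588, 571, 601 and 633 CPM in MEIS1_KO and 471, 533, 524 and 566 in NT_MEIS1ex, again close but without overlap (adjusted p = 0.0369). All 3 calls depended on single libraries. NLRC5 lost its call without MEIS1_KO replicate 3 (0.0525). HLA-B lost it without MEIS1_KO replicate 2, 3 or 4 (0.0510, 0.109 and 0.0999) or NT_MEIS1ex replicate 2 or 3 (0.0699 and 0.0900). B2M lost it without any 1 of MEIS1_KO replicates 1 to 4 (0.0600, 0.0576, 0.113 and 0.100) or NT_MEIS1ex replicate 3 (0.0891).

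The transporter did not follow in MEIS1_KO. TAP1 measured 62.6, 65.8, 73.9 and 77.2 CPM there and 64.3, 62.1, 68.4 and 74.2 in NT_MEIS1ex, and TAP2 18.2, 17.2, 15.1 and 14.99 against 16.2, 15.9, 16.7 and 18.1. The groups overlapped throughout, with 0.05 ± 0.07 (adjusted p = 0.702) and -0.03 ± 0.08 (0.878). HLA-C (0.10 ± 0.05, adjusted p = 0.265), HLA-E (0.03 ± 0.05, 0.770), TAPBP (0.02 ± 0.05, 0.866) and HLA-F (0.44 ± 0.19, 0.177) also overlapped and did not pass. HLA-F rested on 32 to 61 counts per library here.

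Little else of the pathway passed in MEIS1_KO, where 8.81% of all genes were called (4.97% higher, 3.84% lower). LAP3 rose by 0.25 ± 0.05 (adjusted p = 0.00619), the 1 call of 14 supply genes, and of the 10 loading genes 0 passed with edgeR (1 at an unadjusted p under 0.05). FCGRT rose by 0.54 ± 0.05 and ULBP1 fell by 0.48 ± 0.08. STAT2, a partner of IRF9, rose by 0.34 ± 0.05 and JAK2 by 0.47 ± 0.07. Of the type I interferon genes, 5 of 24 rose (MX2, OAS1, OAS3, IFIH1 and SAMD9L, by 0.32 to 0.91) and none fell, with a median of 0.42, and 5 of 9 myeloid markers rose.

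The effects of the knockouts were also compared between the experiments in 1 model over all 17 libraries. The HOXA9 effect differed from the MEIS1 effect for 8 of the 9 genes, 5 higher and 3 lower, against 44.2% of 18836 genes called (24.5% higher, 19.7% lower). The exception was B2M, with a difference of 0.04 ± 0.07 (adjusted p = 0.714). Under nuclear protein-coding library sizes 6 of 9 were called, 2 higher and 4 lower: HLA-B and HLA-C were at 0.30 and 0.26, HLA-E (adjusted p = 0.562), TAPBP (0.705) and NLRC5 (0.433) lost their calls, and B2M was called lower at -0.29 (0.000623). The SAFB effect was lower than the MEIS1 effect for 5 of 9, HLA-F, B2M, TAP1, TAP2 and NLRC5, and higher for none, against 20.9% of genes called (12.4% higher, 8.49% lower). Under that scaling HLA-E was called lower too (0.00203), with B2M at -0.41 and NLRC5 at -0.50. The knockouts of each experiment are measured against that experiment's own NT libraries, and those differed.

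On the common scaling of all 17 libraries, HLA-B averaged 229 ± 1.77 CPM (SD, n = 3) in NT and 412 ± 31.9 CPM (SD, n = 4) in NT_MEIS1ex. HLA-C averaged 81.9 ± 1.84 and 185 ± 14.5 CPM, and TAPBP 194 ± 10.8 and 423 ± 12.5 CPM. B2M stood the other way, at 903 ± 56.5 CPM in NT and 487 ± 35.0 CPM in NT_MEIS1ex, as did TAP2, at 32.0 ± 2.46 and 15.5 ± 1.02 CPM. TAP1 averaged 79.4 ± 7.23 and 62.6 ± 5.33 CPM and NLRC5 ranged from 47.7 to 52.8 and from 52.1 to 56.7 CPM, with a narrow overlap. TAP2 in NT was thus higher than in all the other groups, in which its CPM within each experiment ran from 12.9 to 18.2. No test is given between the experiments, because control type and experiment, including the mitochondrial rRNA share, cannot be told apart.

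Per exon length, in RPKM (reads per kilobase of all annotated exons, scaled like CPM), the order in NT was B2M (139 ± 8.76, SD, n = 3), HLA-E (102 ± 0.703), HLA-B (70.3 ± 0.222), TAPBP (35.9 ± 2.12), HLA-C (30.6 ± 0.565), TAP1 (15.5 ± 1.40), TAP2 (4.69 ± 0.354), NLRC5 (3.79 ± 0.200) and HLA-F (0.407 ± 0.0596). No neighbours in this order overlapped between libraries. In HOXA9_KO and SAFB_KO, NLRC5 stood above TAP2 (5.14 against 2.14 and 3.52 against 2.45 RPKM), and in HOXA9_KO HLA-C stood above TAPBP (47.7 against 43.2 RPKM), each without overlap. In the MEIS1 experiment HLA-B and HLA-E led and overlapped, and B2M, TAPBP and HLA-C followed, overlapping with their neighbours. The exon length of B2M, 6079 bases, includes long annotated variants, which lowers its RPKM.

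The balance of chain to transporter shows the split within single libraries. The RPKM of HLA-B was 14.6, 14.2 and 16.4 times that of TAP2 in the NT libraries. The ratio was 57.0, 51.2 and 61.6 in HOXA9_KO and 35.7, 32.6 and 34.4 in SAFB_KO, with no overlap among the 3 groups. In the MEIS1 experiment it was 55.9, 59.0, 71.4 and 76.6 in MEIS1_KO and 56.8, 54.2, 55.0 and 56.0 in NT_MEIS1ex, where the groups overlapped. Of heavy to light chain, HLA-B to B2M, the ratio ran from 0.473 to 0.537 in NT, 0.741 to 0.782 in HOXA9_KO, 0.604 to 0.648 in SAFB_KO and 1.54 to 1.85 in the MEIS1 experiment. These ratios do not depend on the library size.

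Across the 9 libraries of the first experiment, the profile of NLRC5 ran with HLA-B, HLA-C, HLA-E and B2M and not with the transporter. HLA-F averaged under 2 CPM and was not ranked. Among 11761 genes averaging at least 2 CPM, ranked by Pearson's r of log2(CPM + 0.5) with NLRC5, HLA-E came at rank 2 (r = 0.99), B2M at 152 (0.94), HLA-C at 212 (0.93) and HLA-B at 957 (0.83), while TAPBP came at 3566 (0.58), TAP1 at 6529 (-0.17) and TAP2 at 7639 (-0.45). Outside the 9 genes, the closest to NLRC5 were GNG2, CD52, ELF4, P2RX7 and ADD3 (r from 0.98 to 0.99), and the closest to B2M were MOB3C, NARS1, TRAFD1, TRIM22 and RAB10 (0.96 to 0.99). These libraries form 3 groups, so r mostly orders genes by their group means. Over the 8 MEIS1 libraries, r with NLRC5 was 0.86 for HLA-B, 0.75 for HLA-C, 0.75 for B2M, 0.67 for HLA-F and 0.54 for HLA-E. It was 0.48 for TAP1, 0.36 for TAPBP and -0.29 for TAP2, and 0.86 for CD52 but -0.14 for GNG2.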

How the data were processed

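RNA of 17 MOLM13 libraries had been depleted of ribosomal RNA, made into stranded libraries and sequenced in pairs, per the labels' protocols. The deposited values are whole-number counts per gene. Per the submitters' processing notes, HTSeq 1.99.2, STAR 2.7.10a, bedtools and Trim Galore were used with hg38. Neither a strand setting nor an annotation release is given there. Coordinates and exon lengths came from GENCODE 29, which holds 57940 of 58278 identifiers. The 8 files of the MEIS1 experiment are tab-separated.

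Genes were filtered with filterByExpr (10 counts, 15 in total). TMM factors scaled the libraries, and edgeR 4.0.16 under R 4.3.3 gave the tests (robust quasi-likelihood, Benjamini-Hochberg, threshold 0.05), in 1 fit of 9 libraries, 1 of 8 and 1 of 17 for differences of effects. The biological coefficient of variation was 4.63%, 6.75% and 5.92%. Alternatives were RLE factors, nuclear protein-coding library sizes, DESeq2 1.42.0, limma 3.58.1 (voom), a mean of at least 2 CPM, no filter, the compared groups alone, a replicate block and each library left out. The script was tested on simulated data.

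The members and gene lists were chosen with earlier results of these data known. Named genes are the 9 members, called genes of the supply and loading lists, up to 4 genes of smallest p from each other list, and the 5 most like NLRC5 and B2M; further genes of these lists (EZH2 and TMEM127 partners, interferon genes, myeloid and class I-like examples) were named after their values were seen.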

Additional observations from a re-analysis of the deposited data

Results flagged for a closer look

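The results here were singled out because the effect of one knockout differed from that of MEIS1 knockout in the other experiment, by an interaction term over 17 libraries (edgeR, adjusted over 18836 genes). For HOXA9 against MEIS1, the difference in log2 fold change was 0.63 for HLA-B (adjusted p = 9.47e-09), 0.58 for HLA-C (3.84e-08), 0.36 for HLA-E (2.07e-05), 0.29 for TAPBP (0.000370) and 0.25 for NLRC5 (0.00548). With nuclear protein-coding library sizes HLA-B and HLA-C were at 0.30 and 0.26, and the HLA-E (0.04, adjusted p = 0.562), TAPBP (-0.03, 0.705) and NLRC5 (-0.07, 0.433) calls were lost. With a mean of at least 2 CPM, TAPBP was at 0.19 (0.00803) and the NLRC5 call was lost (0.0675). It was -1.10 for HLA-F (0.00294), -0.67 for TAP1 (4.80e-06) and -1.06 for TAP2 (3.70e-10). For SAFB against MEIS1, it was -1.02 for HLA-F (0.0118), -0.24 for B2M (0.0162), -0.81 for TAP1 (1.86e-06), -0.90 for TAP2 (1.19e-07) and -0.33 for NLRC5 (0.00157). The experiments had different control libraries, and the type I interferon genes stood at 6.42 in NT and 3.94 in NT_MEIS1ex (mean log2 CPM), whose part in these differences was not tested. No library stood apart from the other 3 of its group in the MEIS1 experiment, in 18 groups of values checked with Dixon's test.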

How the results depend on the processing

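For the 54 gene results (9 genes in 6 comparisons), the refits gave 1020 values, several from each refit and so not independent. Of these values, 943 kept direction and side of the threshold, 35 kept direction but lost the call, and 17 kept it and gained one. The other 25 changed sign, of which 5 also lost a call and 1 gained one. The calls of HLA-B, HLA-C, HLA-E, TAP1, TAP2 and NLRC5 in HOXA9_KO against NT kept both in every refit. The cause of the changes below was not tested. With nuclear protein-coding library sizes, values that changed sign were B2M in HOXA9_KO (-0.066), HLA-C in SAFB_KO (-0.026), TAP1 and TAPBP between the knockouts (-9.7e-05 and -0.0099), TAP2 in MEIS1_KO (0.0012), B2M, TAPBP and NLRC5 for HOXA9 against MEIS1 (-0.29, -0.029 and -0.069) and HLA-B, HLA-C and TAPBP for SAFB against MEIS1 (-0.11, -0.15 and -0.019). For the differences of effects, that scaling moved the median over all genes from -0.02 to -0.35 and from -0.00 to -0.18, the calls from 4618 higher and 3703 lower to 1861 and 7799 and from 2330 and 1600 to 606 and 3492, ended the HLA-E, TAPBP and NLRC5 calls for HOXA9 (adjusted p = 0.562, 0.705 and 0.433), and called B2M lower for HOXA9 (0.000623) and HLA-E lower for SAFB (0.00203). With a mean of at least 2 CPM, B2M for HOXA9 against MEIS1 turned to -0.063, and HLA-B and HLA-C for SAFB against MEIS1 to -0.0082 and -0.051, and NLRC5 for HOXA9 lost its call (0.0675). TAPBP for SAFB against MEIS1 was called with RLE factors (0.0471), with DESeq2 (0.0363) and without NT replicate 3 (0.0348) or SAFB_KO replicate 2 (0.0444), and B2M lost its call there without NT replicate 2 (0.0807) or SAFB_KO replicate 2 (0.0581). Leaving out 1 library at a time changed the sign of 6 of the 54 gene results, some in more than 1 refit. None was called as reported or in those refits. HLA-F between the knockouts ranged from -0.29 to 0.028 (positive without HOXA9_KO replicate 2). In MEIS1_KO, TAP2 ranged from -0.083 to 0.017 (positive without MEIS1_KO replicate 3 or 4 or NT_MEIS1ex replicate 4), TAP1 from -0.00049 to 0.11 and TAPBP from -0.0017 to 0.045 (both negative without MEIS1_KO replicate 4). For HOXA9 against MEIS1, B2M ranged from -0.0078 to 0.080 (negative without NT replicate 3 or NT_MEIS1ex replicate 4). For SAFB against MEIS1, HLA-C ranged from -0.011 to 0.067 (negative without SAFB_KO replicate 3 or NT_MEIS1ex replicate 1 or 4). In MEIS1_KO, leaving out a library gave 0 to 3 calls among the 9 genes and 751 to 1772 among all genes, with 0 and 751 without MEIS1_KO replicate 3. Replicate numbers did not pair the libraries (correlations of deviations between same-numbered libraries from -0.14 to 0.08 over 13 pairs), and a replicate block left 9, 6, 7, 3, 8 and 5 of the 9 genes called in the 6 comparisons and 10787, 6718, 7642, 1195, 8090 and 3703 of all genes. Low counts limit HLA-F.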
